A study of Rattus norvegicus with 20 samples.

Results

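The subject is a group of 40 cell cycle genes in the right ventricle of rats with pulmonary embolism, ordered by what they do: copying DNA, dividing the chromosomes, driving the cycle as cyclins and their kinases, and inhibiting those kinases. A gene was taken to be measured where the array annotation gave its symbol alone to at least 1 probe set (a group of probes for 1 transcript). This held for 38 of the 40 genes, with 53 probe sets, out of 14217 genes and 31042 probe sets tested in all. Replication was covered by 9 genes, mitosis by 16, cyclins and kinases by 9 and inhibitors by 4. Tpx2, which activates Aurora A on the spindle, had 0 probe sets. Rrm2, the small subunit of ribonucleotide reductase, had 2, both annotated to Rrm2l1 as well.

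The animals were male Sprague Dawley rats of about 350 g. In the PE group (PE2.0 in the labels), polystyrene microspheres of 25 micron were injected into the right jugular vein in 0.01% Tween-20, at 2000000 per 100 g of body weight from a suspension of 13000000 per ml; such spheres lodge in the lung circulation and load the right ventricle. The vehicle group received 0.01% Tween-20 without spheres. At 6 weeks the hearts were perfused with buffer, which removes blood, and the right ventricle was cut into its base, called the outflow tract, and its apex. RNA of each piece (5 microgram) was hybridised to 1 Affymetrix array. The 4 groups were PE outflow tract, vehicle outflow tract, PE apex and vehicle apex, with 5 arrays each, labelled as biological replicates. All 20 samples are whole tissue at a single time, so fewer cells of a type and less RNA per cell cannot be told apart. A text field on animal treatment describes the vehicle injection for all 20 samples, and the groups follow the titles and the treatment field, which separate PE from vehicle.

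A dividing cell first copies its DNA, which needs a ring-shaped helicase built from the Mcm subunits, the sliding clamp Pcna and a supply of nucleotides, and then separates its chromosomes with a spindle that kinases such as Plk1 and the Aurora kinases assemble. Cyclins activate the cyclin-dependent kinases (Cdk) that time these steps, and inhibitors of the Cip/Kip and Ink4 families hold the kinases back. Adult heart muscle cells rarely divide, whereas fibroblasts, vessel cells and immune cells of the heart can, and several of these genes, Pcna and Cdkn1a among them, also serve DNA repair.

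Many cell cycle promoters are known to carry a CCAAT box, which NF-Y binds, with an E2F site in many replication genes and a CHR element (cell cycle genes homology region) in many mitosis genes. The 120 bases before the gene's start are printed for 9 members, from RefSeq on the GRCr8 assembly, so that genes that rose in the outflow tract can be read beside genes that did not. Each runs 5′ to 3′ on the gene's own strand and ends at the base before the start. Capitals mark the CCAAT box (CCAAT, or ATTGG on the other strand), the CHR (TTTGAA or TTTAAA) and the E2F core (TTCCCGC or TTGGCGC), all searched on both strands. Mcm3 and Mcm6 stand for replication genes that rose, Mcm5 and Pcna for replication genes that did not pass the test, Mki67 and Prc1 for mitosis genes that rose, Ccnb2 and Cdk1 for the mitotic cyclin and kinase, and Cdkn1b for an inhibitor that rose.
Mcm3, chr9:30733747-30733866, minus strand: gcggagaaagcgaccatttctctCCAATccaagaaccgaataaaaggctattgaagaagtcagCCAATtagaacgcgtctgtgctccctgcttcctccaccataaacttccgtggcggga
Mcm6, chr13:42404353-42404472, minus strand: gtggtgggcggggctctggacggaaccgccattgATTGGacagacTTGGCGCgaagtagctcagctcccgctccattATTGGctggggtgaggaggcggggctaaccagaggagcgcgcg
Mcm5, chr19:13488693-13488812, plus strand: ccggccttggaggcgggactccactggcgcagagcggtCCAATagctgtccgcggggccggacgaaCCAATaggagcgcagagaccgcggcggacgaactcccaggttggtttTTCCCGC
Pcna, chr3:139955821-139955940, minus strand: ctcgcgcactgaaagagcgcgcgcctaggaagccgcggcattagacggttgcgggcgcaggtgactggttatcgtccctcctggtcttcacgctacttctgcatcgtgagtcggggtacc
Mki67, chr1:199952594-199952713, minus strand: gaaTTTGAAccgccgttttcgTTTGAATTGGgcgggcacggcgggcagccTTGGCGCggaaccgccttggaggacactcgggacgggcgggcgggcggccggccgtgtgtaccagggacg
Prc1, chr1:143659361-143659480, plus strand: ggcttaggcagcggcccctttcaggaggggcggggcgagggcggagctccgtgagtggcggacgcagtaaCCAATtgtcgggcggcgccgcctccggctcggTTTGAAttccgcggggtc
Ccnb2, chr8:79981659-79981778, minus strand: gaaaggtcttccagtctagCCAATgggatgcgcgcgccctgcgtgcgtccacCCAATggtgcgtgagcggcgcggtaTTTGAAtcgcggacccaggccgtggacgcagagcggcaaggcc
Cdk1, chr20:19265173-19265292, plus strand: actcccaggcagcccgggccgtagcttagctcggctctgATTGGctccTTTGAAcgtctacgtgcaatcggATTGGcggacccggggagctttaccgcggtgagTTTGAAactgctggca
Cdkn1b, chr4:169491384-169491503, plus strand: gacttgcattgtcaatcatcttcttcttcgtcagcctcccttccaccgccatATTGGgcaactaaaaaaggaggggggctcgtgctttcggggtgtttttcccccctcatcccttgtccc

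In the Mki67 stretch, the CHR nearer the start and the CCAAT box on the other strand share 1 base. The Mcm6 and Mcm5 stretches both hold an E2F core and a pair of CCAAT boxes, although Mcm6 rose and Mcm5 did not pass the test. Over the full 250 bases before the start, 30 of the 40 genes had a promoter in the table. A CCAAT box lay in 21 of the 30, against 36.1% of all 27457 genes with a promoter. A CHR lay in 17 of the 30 (56.7%), against 26.9% of all genes, and an E2F core in 8 (26.7%), against 5.66%. By role, the CHR lay in 10 of 13 mitosis promoters and 1 of 8 replication promoters, and the E2F core in 5 of 8 replication promoters and 1 of 13 mitosis promoters. Among the 13 promoters of genes that rose in the outflow tract, 10 held a CCAAT box, 8 a CHR and 3 an E2F core, while the counts were 11, 9 and 5 among the 17 promoters of measured genes that did not. A match is a description of the letters and does not show that a factor binds there.

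The deposited signals are linear intensities that the authors had scaled to a common level, with a trimmed mean of 500.2 on every array. Median signals ran from 132 to 159 on the PE outflow arrays, from 123 to 136 on the vehicle outflow arrays, from 129 to 139 on the PE apex arrays and from 124 to 138 on the vehicle apex arrays. PE outflow array 2 stood apart: the signal ratio of its 3′ to 5′ GAPDH control probe sets, which goes up as RNA is degraded, was 6.12, against 1.70 to 2.34 on the other PE outflow arrays. The ratio was 1.38 to 1.66 on vehicle outflow arrays, 1.47 to 1.67 on PE apex arrays and 1.44 to 1.83 on vehicle apex arrays. Its mean correlation with the other arrays of its group was 0.929, and the 4 others had 0.959 to 0.963. Counts without PE outflow array 2, and with PE outflow arrays 1 and 3 alone, stand beside the results below. Fits with the GAPDH ratio as a covariate or with array weights were run as alternatives, and the part of RNA quality was otherwise not tested.

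A mean signal over 64 on the 20 arrays was taken as the mark of a signal clear of the dim end of the array. It was passed by 36 of the 53 probe sets (67.9%), against 64.3% of all probe sets, and by 28 of the 38 genes on the brightest probe set of each (73.7%), against 76.9% of all genes. Each of the 9 replication genes passed, from 90.0 for Tyms (thymidylate synthase) to 2961 for Pcna. Mitosis genes were dimmer: 9 of 16 passed, and the highest mean among them was 244 for Nusap1, a spindle protein. Aurkb, the chromosomal passenger kinase, lay just over the mark at 72.4. Below it were Ccne1 (57.5), which pairs with Cdk2, Birc5 (55.9), Aurka (53.3), Ccna2 (48.9), Plk1 (47.4), Melk (38.6), Cdkn2b (37.1), Foxm1 (36.1), Bub1b (20.7) and Ttk (17.2). These 10 genes make up 7 of mitosis, 2 of cyclins and 1 of inhibitors. By group, 38 probe sets passed in PE outflow tract, 34 in vehicle outflow tract, 35 in PE apex and 36 in vehicle apex. Foxm1 and Birc5 passed as genes in the PE outflow tract alone, with 97.0 and 68.2, and their next highest group means were 20.1 and 53. The brightest member signals belonged to Cdkn1b, Pcna, Ccnd2 and Cdk4, but signals of different probe sets are not comparable as amounts of RNA.

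**Figure D1:**
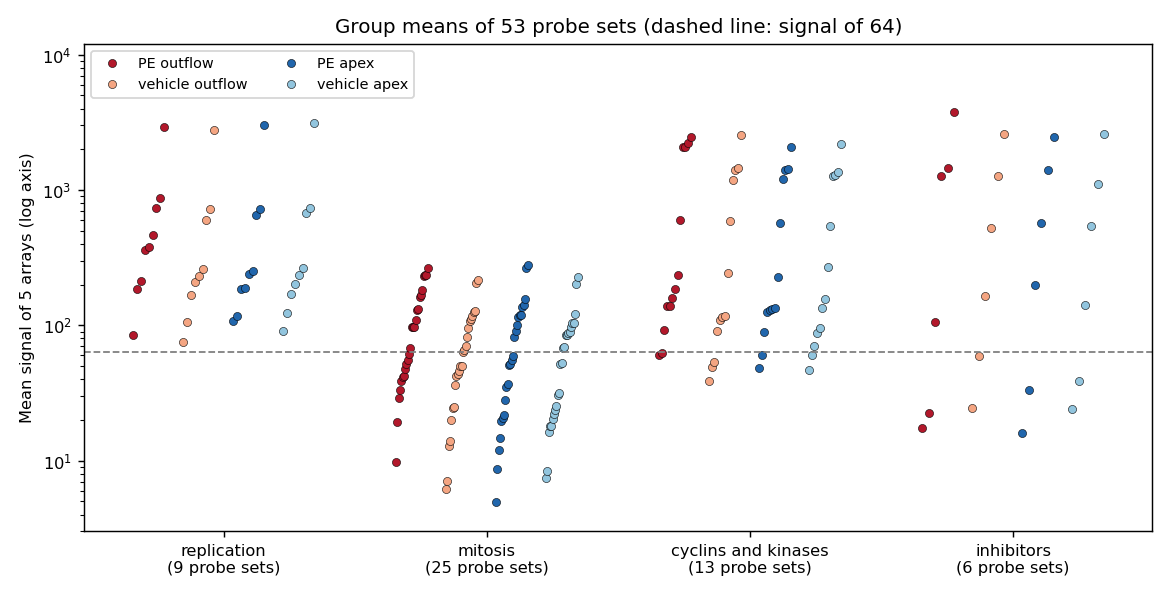
Group means (5 arrays each) of the 53 probe sets by role on a log axis, PE outflow tract left of vehicle outflow tract and PE apex left of vehicle apex, with a dashed line at a signal of 64. All 9 replication probe sets lie above the line in each group, while 14 of 25 mitosis probe sets do in the PE outflow tract and 11 in the vehicle outflow tract.

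The first question was what embolism changed in the outflow tract. On log2 of the signal plus 16, fitted with limma and called at a Benjamini-Hochberg adjusted p under 0.05 over all probe sets, 18 of the 53 probe sets were higher in PE and 1 was lower. Of all probe sets, 34.5% were called, 19.6% higher and 14.9% lower. As genes, 16 of 38 were higher and 1 lower, against 26.3% and 18.0% of all genes. The median log2 fold change of the 38 genes was 0.42, against 0.10 over all genes, and 33 of 38 were above 0. The PE and vehicle arrays did not overlap for 12 probe sets, all higher in PE, and for 0 lower, where 13.4% and 9.98% of all probe sets were apart in these directions. Centring each array on its median brought the median of all genes to -0.04 and that of the members to 0.29. Of the 38, 30 were then above 0. Centring shifts every gene of an array alike, so the members' distance from all genes could not change (0.325 centred, 0.3249 as deposited). After quantile normalization this distance was 0.28. The split of calls over all probe sets moved with the scaling too, to 16.7% higher and 17.3% lower after quantile normalization and to 14.2% higher and 19.2% lower after centring. Both gave 15 member probe sets higher and 1 lower. Without PE outflow array 2 the count was 17 higher and 1 lower, where 37.1% of all probe sets were called. With PE outflow arrays 1 and 3 alone it was 12 higher and 1 lower, where 23.5% were called. With the GAPDH ratio as a covariate it was 14 higher and 1 lower, where 32.3% were called.

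Of the replication genes, 4 of 9 (44.4%) were higher in the PE outflow tract, against 26.3% of all genes. All 4 were subunits of the Mcm helicase. The median over the 9 was 0.28, against 0.10 over all genes. Mcm4 (probe set 1373557_at) read 400.3, 347, 428, 512 and 649 on PE outflow arrays, against 229.8, 252, 219, 252 and 213 on vehicle outflow arrays. Every PE array lay above every vehicle array, and the log2 fold change was 0.93 ± 0.17 (model SE, n = 5 each, adjusted p = 0.000245). Mcm6 (1371074_a_at) read 310.0, 294, 360.1, 462 and 469.6 in PE, against 219, 199, 193, 276 and 154 in vehicle. Its groups were apart as well, by a log2 fold change of 0.82 ± 0.18 (adjusted p = 0.00151). Mcm3 (1372406_at) read 204, 127, 189, 253 and 296 in PE, against 40.6, 127, 113, 136 and 111 in vehicle. PE array 2 lay among the vehicle arrays and vehicle array 1 far below the others; the log2 fold change was 0.95 ± 0.24 (adjusted p = 0.00391) and stayed between 0.69 and 1.10 when any single array was left out, with the call kept.

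Mcm2 (1374036_at) read 326, 346, 306, 376 and 450.4 on PE outflow arrays, against 236, 243, 187, 345 and 295 on vehicle outflow arrays. The groups overlapped through vehicle array 4, and the log2 fold change of 0.46 ± 0.17 only just passed the test (adjusted p = 0.0453). The call was lost without PE outflow array 2, 4 or 5 (log2 fold changes of 0.47, 0.44 and 0.38), without vehicle outflow array 1, 2 or 3 (0.43, 0.44 and 0.35), and under 6 of the other settings tried. The other helicase subunits did not pass, with log2 fold changes of 0.24 for Mcm7 (adjusted p = 0.224) and 0.14 for Mcm5 (adjusted p = 0.57). Nor did Pcna at 0.06, Tyms at 0.12 or Rrm1, the large subunit of ribonucleotide reductase, at 0.28 (adjusted p = 0.78, 0.715 and 0.0674). The brighter of the 2 probe sets shared by Rrm2 and Rrm2l1 had means of 317 in PE and 98.2 in vehicle outflow tract, a log2 fold change of 1.60 ± 0.19 (adjusted p = 2.59e-06), and cannot be assigned to either gene.

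Mitosis genes followed the same direction, with 7 of 16 (43.8%) higher in the PE outflow tract and 0 lower, against 26.3% and 18.0% of all genes. Their median log2 fold change was 0.42, against 0.10 over all genes. Foxm1 (1369018_at), the transcription factor of late cell cycle genes, read 79.1, 158, 83.2, 99.2 and 65.4 on PE arrays, against 17.9, 11.8, 7.84, 52.6 and 10.6 on vehicle arrays. All PE arrays exceeded 64 and all vehicle arrays lay below it, and the log2 fold change was 1.71 ± 0.29 (adjusted p = 0.000115). For such a dim gene the size depends on the constant added: it was 2.48 with 1 added and 0.93 with 64, called in both. Its other probe set (1398470_at), with means of 9.82 in PE and 13.9 in vehicle, gave -0.10 (adjusted p = 0.868). Mki67 (1374775_at), which encodes the proliferation antigen Ki-67, read 207, 327, 179.5, 206 and 256 in PE, against 77.0, 66.9, 93.5, 129 and 44.1 in vehicle. The groups were apart, with means of 235 ± 58.2 and 82.0 ± 31.6 (SD, n = 5 each) and a log2 fold change of 1.39 ± 0.28 (adjusted p = 0.000621).

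Cdkn3 (1372685_at), a phosphatase that acts on Cdk proteins, read 256, 244, 229, 191 and 257 on PE outflow arrays, against 116, 110.5, 98.5, 175 and 82.8 on vehicle outflow arrays. All PE arrays were higher, and the log2 fold change was 0.95 ± 0.22 (adjusted p = 0.00215). Prc1 (1392899_at), which bundles the microtubules of the central spindle, read 254, 229, 203, 295 and 183 in PE, against 72.3, 131, 97.2, 166 and 91.3 in vehicle. These groups were apart too, by 0.99 ± 0.24 (adjusted p = 0.00326). The spindle checkpoint kinases Ttk and Bub1b rose by 1.15 ± 0.34 and 0.91 ± 0.25 on the log2 scale (adjusted p = 0.012 and 0.00793), but their group means stayed below 64, at 38.7 and 41.4 in PE against 7.02 and 12.8 in vehicle. With PE outflow arrays 1 and 3 alone neither was called (0.52 and 0.75), and with the GAPDH ratio as a covariate Ttk was not (0.65, adjusted p = 0.223). Kif11, the kinesin that keeps the spindle bipolar, only just passed, at 0.40 ± 0.15 (adjusted p = 0.0451). Its call was lost without PE outflow array 1, 2, 3 or 4 or vehicle outflow array 2, 3 or 4 (0.30 to 0.43) and in 14 of 21 settings in all, and its other probe set (1385619_at) gave 0.33 (adjusted p = 0.535).

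Top2a, the topoisomerase that untangles chromosomes, is often used as a proliferation marker beside Mki67, yet it was not called. Its brighter probe set (1372186_a_at) read 202, 198, 135, 143 and 133 on PE outflow arrays, against 190.4, 93.1, 109.6, 113 and 118 on vehicle outflow arrays. Only vehicle array 1 kept the groups from separating, and the log2 fold change was 0.35 ± 0.32 (adjusted p = 0.441). The dimmer probe set (1388650_at) read 211, 202, 159, 156 and 116 in PE, against 119.9, 130.4, 113, 123 and 52.4 in vehicle, a log2 fold change of 0.60 ± 0.24 (adjusted p = 0.0605). The remaining mitosis genes gave -0.02 to 0.49 without passing. The lowest was Cdc20, the activator of the anaphase-promoting complex, and the highest Aurkb. Aurkb was called higher without PE outflow array 2 (0.61, adjusted p = 0.0242). It was also called with array weights (adjusted p = 0.0225) and with the GAPDH ratio as a covariate (adjusted p = 0.0312). Cdc20 had 5 probe sets that did not move alike: 1387895_s_at was higher in PE, with means of 109.6 and 65.2 and a rise of 0.75 on the log2 scale (adjusted p = 0.0382), while the 4 others gave -0.45 to 0.64 and were not called. The call of the first was lost when any PE outflow array or vehicle outflow array 1 or 3 was left out (0.52 to 0.78).

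**Figure D2:**
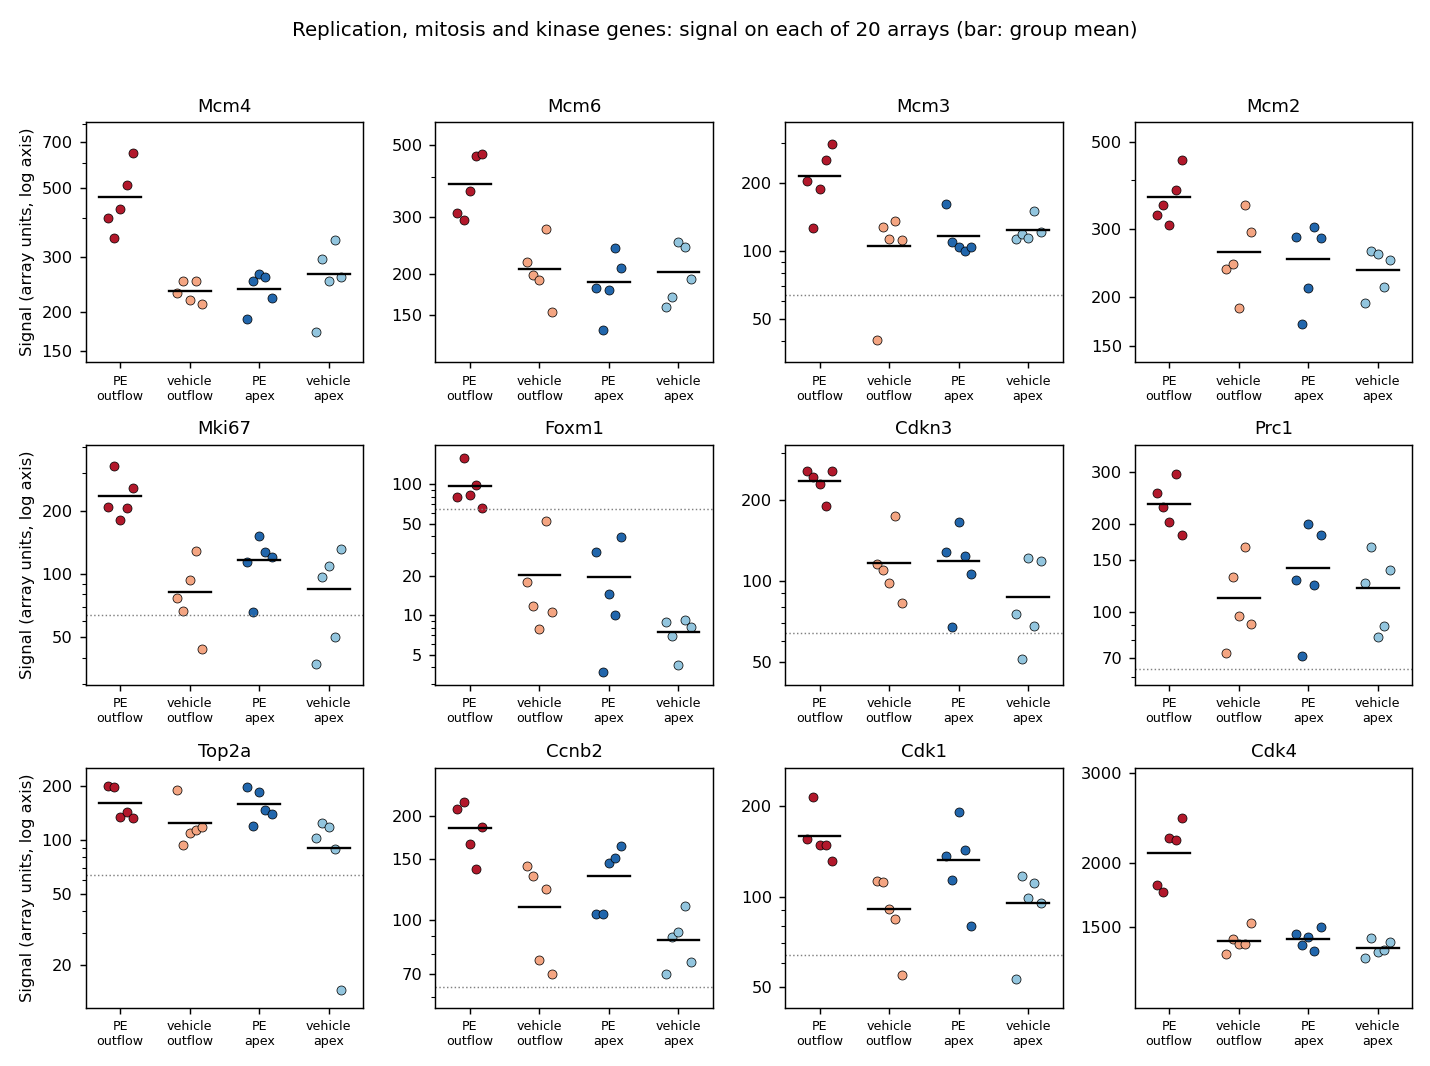
Signal on each of the 20 arrays for 4 replication genes (upper row), 5 mitosis genes, and Ccnb2, Cdk1 and Cdk4, on log axes with a bar at the group mean of 5 arrays and a dotted line at 64 where it lies in range. The PE outflow arrays lie above all vehicle outflow arrays for Mcm4, Mcm6, Mki67, Foxm1, Cdkn3, Prc1, Cdk1 and Cdk4 and overlap them for Mcm3, Mcm2, Top2a and Ccnb2.

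Among cyclins and kinases, 3 of 9 genes (33.3%) were higher in the PE outflow tract, against 26.3% of all genes. The median log2 fold change was 0.49, against 0.10 over all genes. Cdk4 (1369950_at), the kinase of cyclin D, read 1809, 1759.7, 2244, 2216 and 2453 on PE arrays, against 1326, 1424, 1392, 1389 and 1525 on vehicle arrays. The groups were apart, by 0.56 ± 0.10 (adjusted p = 0.000226). Cdk1 (1367776_at), the kinase of mitosis, read 156, 214, 149, 148 and 131 in PE, against 113, 111, 90.6, 84.3 and 54.7 in vehicle. All PE arrays were higher, by a log2 fold change of 0.73 ± 0.22 (adjusted p = 0.0122). Ccnb2 (1389566_at), cyclin B2, which activates Cdk1, read 209, 219.8, 166, 141 and 186 in PE, against 144, 134, 76.9, 123 and 69.9 in vehicle. PE array 4 fell within the vehicle range, and the log2 fold change was 0.70 ± 0.19 (adjusted p = 0.00606). With the GAPDH ratio as a covariate Cdk1 and Ccnb2 were no longer called, at 0.53 (adjusted p = 0.14) and 0.58 (adjusted p = 0.0643), and Cdk1 was also lost with PE outflow arrays 1 and 3 alone (0.69, adjusted p = 0.109).

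Cyclin D1 (Ccnd1), which takes up growth signals at the start of the cycle, gave a different answer on each of its 3 probe sets. The brightest (1383075_at) read 1739, 2404, 1416, 2135 and 2706 on PE outflow arrays, against 1069, 1554, 1294, 1504 and 1909 on vehicle outflow arrays. These ranges overlapped, and the log2 fold change of 0.49 ± 0.23 was not called (adjusted p = 0.12). The next (1371643_at) read 1563, 3231, 1629, 2455 and 3396 in PE, against 1040.1, 1451, 1106, 1129 and 1178 in vehicle. Here all PE arrays were higher and the log2 fold change was 0.98 ± 0.19 (adjusted p = 0.000348). The dimmest (1371150_at) read 725, 487, 463, 683 and 632 in PE, against 583, 643, 462, 563 and 694 in vehicle, a log2 fold change of 0.01 ± 0.15 (adjusted p = 0.964). The cyclin and kinase genes not yet given ranged from -0.19 for Ccnd2, cyclin D2, to 0.63 for Ccna2, cyclin A2. None of the 5 (Ccna2, Ccnb1, Ccnd2, Ccne1 and Cdk2) passed. The dimmer Ccnb1 probe set (1370345_at) averaged 91.6 in PE and 53.1 in vehicle and was not called. Without PE outflow array 2 it was called higher (0.84, adjusted p = 0.023).

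The inhibitors parted in direction. Cdkn1c (1372299_at), which encodes p57 of the Cip/Kip family, had the smallest adjusted p of the 53 probe sets. It read 1204, 1287, 1815, 1490.3 and 1512 on PE outflow arrays, against 460.4, 563, 564, 594 and 445 on vehicle outflow arrays. The lowest PE array lay above the highest vehicle array by more than a factor of 2, and the log2 fold change was 1.44 ± 0.16 (adjusted p = 1.06e-06). Cdkn1b (1373812_at), which encodes p27 of the same family, read 3454, 3363, 3112, 4133 and 4806 in PE, against 2738, 2618, 2656, 2959 and 1939.8 in vehicle. Its groups were apart by 0.54 ± 0.13 (adjusted p = 0.00233), while with PE outflow arrays 1 and 3 alone the value was 0.36 and not called (adjusted p = 0.0767). Its dim second probe set (1369192_at), with means of 22.4 in PE and 24.4 in vehicle, gave -0.03 (adjusted p = 0.962).

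Cdkn1a (1388674_at), which encodes p21, the inhibitor induced by p53, read 1510.2, 1995, 1304, 837 and 731 on PE outflow arrays, against 1889, 1083, 1278, 833 and 1305 on vehicle outflow arrays. The arrays were fully mixed and the log2 fold change was -0.05 ± 0.28 (adjusted p = 0.923), a value whose sign turned when single arrays were left out. The dimmer Cdkn1a probe set (1387391_at) read 159, 89.6, 154, 69.6 and 60.6 in PE, against 253, 159, 118, 104 and 183 in vehicle, a log2 fold change of -0.57 ± 0.29 (adjusted p = 0.14). Cdkn2b (1369193_at), the Ink4 inhibitor p15, was the 1 gene lower in PE. It read 11, 54, 7.37, 6.38 and 7.93 in PE, against 92.1, 80.0, 49.2, 12.6 and 60.9 in vehicle. Only PE array 2 kept the groups from separating, and vehicle array 4 lay just above the other PE arrays. The log2 fold change was -1.20 ± 0.39 (adjusted p = 0.0234). The call was lost when PE outflow array 3, 4 or 5 (-1.11, -1.09 and -1.12) or vehicle outflow array 1 or 2 (-1.03 and -1.07) was left out, and the gene was below 64 on average in every group.

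**Figure D3:**
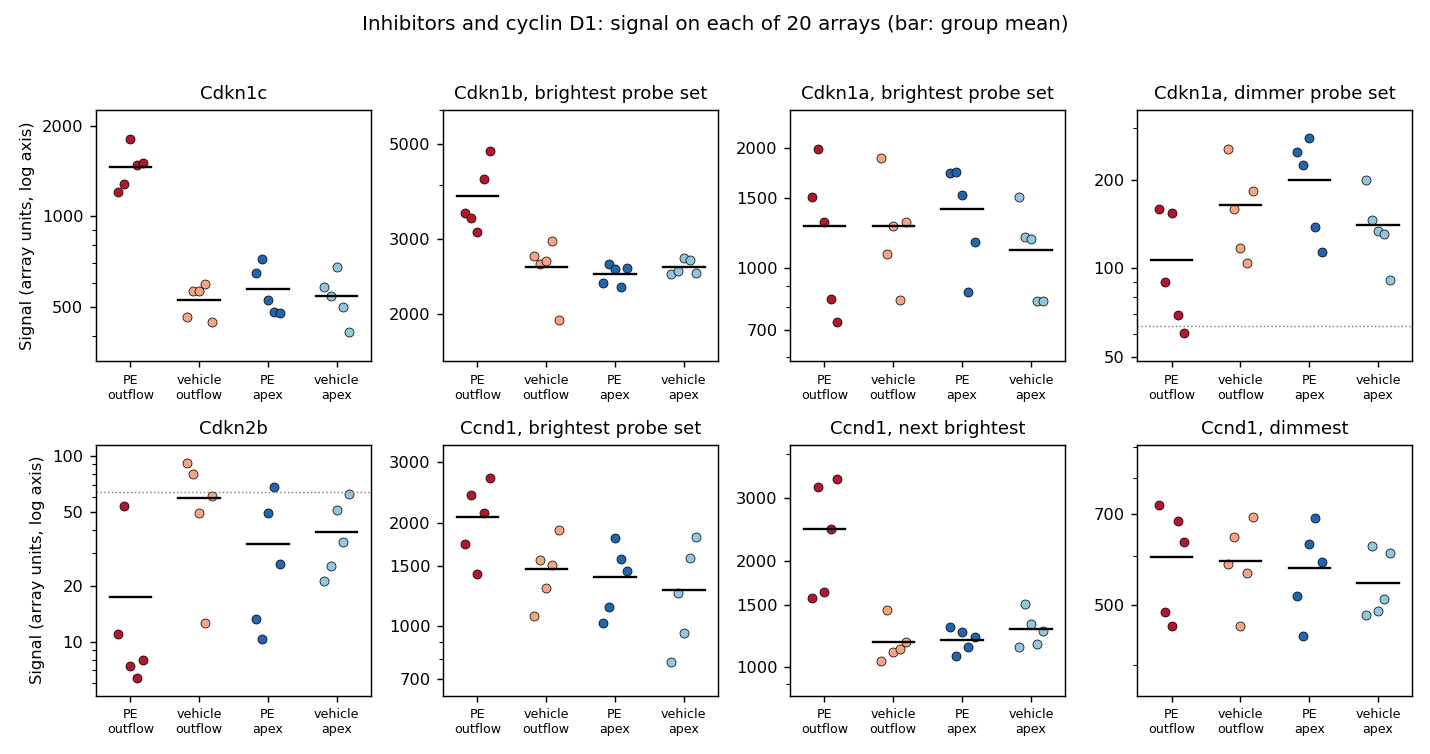
Signal on each of the 20 arrays for the 4 inhibitor genes (2 probe sets of Cdkn1a) and the 3 probe sets of Ccnd1, on log axes with a bar at the group mean of 5 arrays and a dotted line at 64 where it lies in range. Cdkn1c and Cdkn1b are separate in the PE outflow tract, Cdkn1a is not, and of the Ccnd1 probe sets 1 of 3 separates.

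In the apex, 0 of the 53 probe sets were called between PE and vehicle, where 0.0129% of all probe sets were, 0.0129% higher and 0 lower, and 0 of 38 genes, where 0.0211% of all genes were. At an unadjusted p under 0.05 the limma fit gave 6 probe sets higher and 1 lower, or 7 of 53, against 7.47% of all probe sets, and the count of calls was 0 under all alternatives run. The members did not separate by array for any probe set, in a background of 1.56% higher and 1.5% lower. The median gene moved by 0.10, against 0.00 over all genes. Mitosis genes had the highest median, 0.31, with 13 of 16 above 0, and replication genes lay at -0.04.

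Mcm4 read 191, 251, 264, 259.7 and 222 on PE apex arrays, against 173, 297, 252, 341 and 259 on vehicle apex arrays. Mcm6 read 182, 135, 179.7, 241 and 209 in PE apex, against 159, 170.2, 252, 244 and 194 in vehicle apex. Mcm3 read 162, 109.9, 105, 100.3 and 105 in PE apex, against 113, 119, 115, 149.7 and 121 in vehicle apex. The helicase genes were thus mixed between the groups, at log2 fold changes of -0.12, -0.10 and -0.09 (adjusted p = 0.92, 0.947 and 0.966). Mcm2 read 285, 170.2, 211, 302 and 283 in PE apex, against 193, 262, 258, 213 and 249 in vehicle apex, and its log2 fold change was 0.07 (adjusted p = 0.966).

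Among the mitosis genes, Top2a had the largest apex value. Its brighter probe set read 197, 119, 186, 147 and 139 on PE apex arrays, against 102, 124, 118, 89.4 and 14.4 on vehicle apex arrays. PE arrays exceeded all vehicle arrays in 4 of 5 cases, and vehicle array 5 lay far below the rest; the log2 fold change was 0.88 ± 0.32 (adjusted p = 0.498), and 0.47 to 1.02 with single arrays left out. The dimmer probe set read 112, 78.5, 178, 165 and 147 in PE apex, against 89.3, 74.3, 104, 49.1 and 109 in vehicle apex, at 0.58 ± 0.24 (adjusted p = 0.594). Mki67 read 114, 65.9, 152, 128 and 120.01 in PE apex, against 37.2, 97.2, 109.6, 50.3 and 132 in vehicle apex, at 0.45 ± 0.28 (adjusted p = 0.777). Both probe sets of Top2a and that of Mki67 had higher means in PE without passing the test.

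Foxm1 read 30.2, 3.68, 14.5, 9.99 and 39.8 on PE apex arrays, against 8.88, 6.95, 4.20, 9.19 and 8.15 on vehicle apex arrays. All 10 values lay below 64, and the log2 fold change was 0.50 ± 0.29 (adjusted p = 0.751). Cdkn3 read 128, 67.4, 166, 124 and 106 in PE apex, against 75.6, 51.4, 122, 68.2 and 118 in vehicle apex. Prc1 read 128, 70.7, 199.6, 124 and 183 in PE apex, against 125, 167, 82.5, 89.7 and 139 in vehicle apex. Their groups overlapped, at 0.39 ± 0.22 and 0.17 ± 0.24 (adjusted p = 0.744 and 0.922). Melk, a mitotic kinase, and Kif11 had unadjusted p under 0.05, at 0.52 and 0.35 (adjusted p = 0.53 and 0.613).

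Ccnb2 read 104, 104, 147, 151 and 164 on PE apex arrays, against 70.2, 89.3, 92.5, 110.2 and 75.6 on vehicle apex arrays. Only the 2 lowest PE arrays fell inside the vehicle range, and the log2 fold change of 0.53 ± 0.19 did not pass (adjusted p = 0.488). Cdk1 read 136, 113, 191, 143 and 79.8 in PE apex, against 53.3, 117, 98.6, 111 and 94.9 in vehicle apex, at 0.41 ± 0.22 (adjusted p = 0.718). Cdk4 read 1451, 1386, 1435, 1349 and 1499.9 in PE apex, against 1304, 1425, 1342, 1351 and 1401 in vehicle apex, at 0.06 ± 0.10 (adjusted p = 0.939). Cdk4 was thus nearly level, with an SE far smaller than that of the mitosis genes. The brightest Ccnd1 probe set read 1020.3, 1138, 1805, 1566 and 1446 in PE apex, against 784, 1249, 955, 1578 and 1816 in vehicle apex. Its neighbour 1371643_at read 1296, 1078, 1255, 1139 and 1220.0 in PE apex, against 1143, 1509.7, 1327, 1161 and 1268 in vehicle apex. The dimmest read 517, 447, 628, 689.9 and 588 in PE apex, against 482, 623, 489, 512 and 606 in vehicle apex. None of the 3 separated the groups, at 0.16, -0.09 and 0.07.

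Cdkn1c read 649, 722, 525, 479.8 and 476 on PE apex arrays, against 580.1, 541, 675, 498 and 411 on vehicle apex arrays. Cdkn1b read 2364, 2613, 2549.7, 2316 and 2560.3 in PE apex, against 2482, 2521, 2701, 2669 and 2495 in vehicle apex. Neither separated, at 0.07 ± 0.16 and -0.05 ± 0.13 (adjusted p = 0.955 and 0.961). Cdkn1a read 1728, 1745, 1529, 872 and 1162 in PE apex, against 1505, 1194, 1184, 828 and 828 in vehicle apex, at 0.33 ± 0.28 (adjusted p = 0.845), and its dimmer probe set had means of 200.03 and 140.3. Cdkn2b read 13.2, 10.3, 49.5, 67.7 and 26.2 in PE apex, against 21.1, 25.4, 50.8, 34.2 and 62.2 in vehicle apex, at -0.24 ± 0.39 (adjusted p = 0.939). The inhibitors that rose in the outflow tract thus showed overlapping arrays in the apex.

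**Figure D4:**
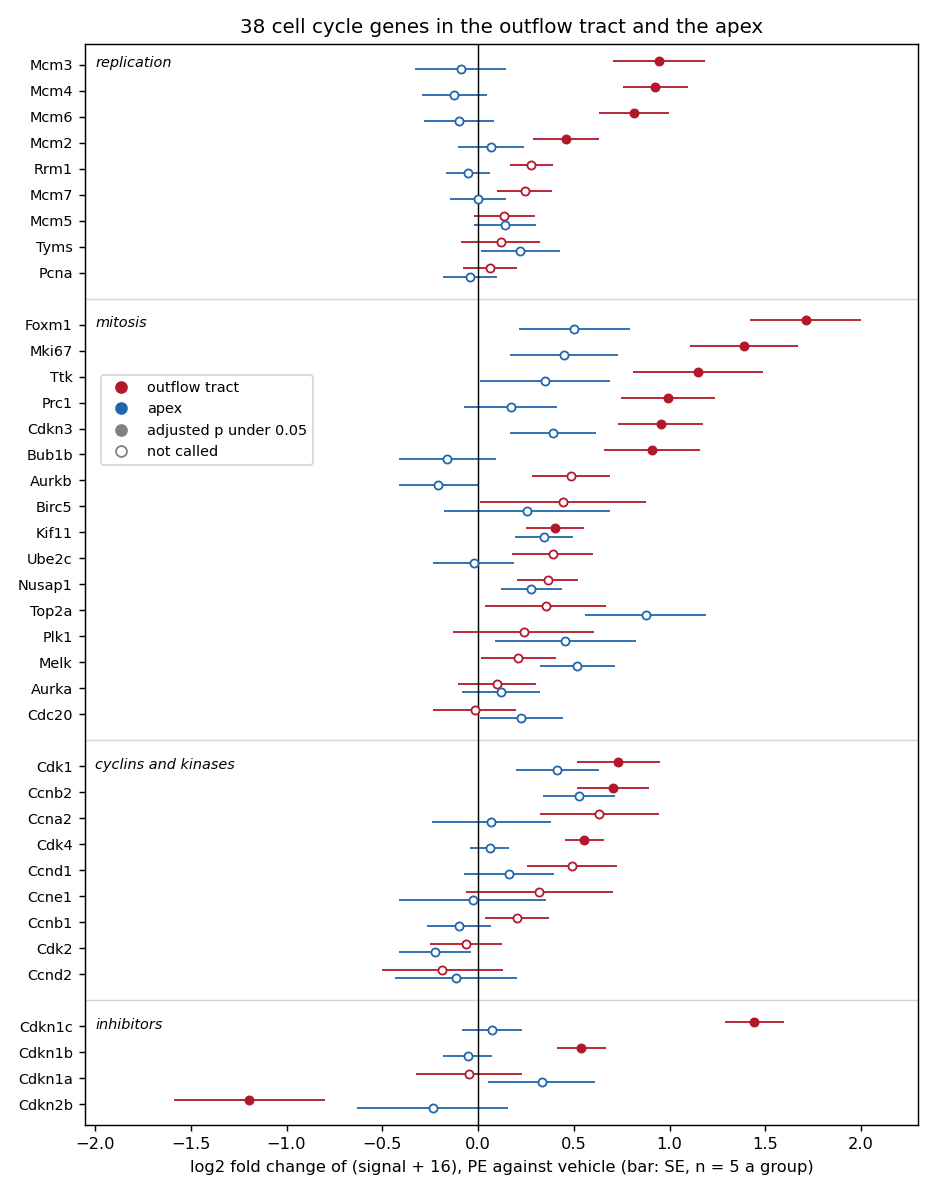
Log2 fold changes of signal plus 16, PE against vehicle, with the model SE (n = 5 a group), for 38 genes on the brightest probe set of each, in the outflow tract (red) and the apex (blue). Filled points have an adjusted p under 0.05: 17 in the outflow tract, 16 to the right and Cdkn2b to the left, and 0 in the apex.

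Whether the PE effect itself differed between the regions was tested as the outflow effect minus the apex effect. For 10 of the 53 probe sets the difference was called, all with the larger value in the outflow tract, where 17.9% of all probe sets were called and 9.84% in this direction. As genes these were 8 of 38 higher and 0 lower, against 14.1% and 10.2% of all genes. They were the helicase genes Mcm4 (1.05 ± 0.24, adjusted p = 0.00542), Mcm6 (0.91 ± 0.26, adjusted p = 0.0187) and Mcm3 (1.04 ± 0.34, adjusted p = 0.0386), the mitosis genes Foxm1 (1.21 ± 0.41, adjusted p = 0.0481) and Bub1b (1.07 ± 0.36, adjusted p = 0.0436), Cdk4 (0.49 ± 0.14, adjusted p = 0.021), and the inhibitors Cdkn1b (0.59 ± 0.18, adjusted p = 0.0273) and Cdkn1c (1.37 ± 0.22, adjusted p = 0.000603). The 2 other probe sets belonged to Ccnd1 (1371643_at, 1.07 ± 0.26, adjusted p = 0.0083) and Ttk. The Ttk probe set (1397476_at) combined 0.57 in the outflow tract with -0.75 in the apex, neither called, at group means of 6.18 to 23.9.

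Mki67, Cdkn3, Prc1, Ccnb2 and Cdk1 rose in the outflow tract and were not called in the apex, but their difference between regions was not called either, at 0.94, 0.56, 0.82, 0.18 and 0.32 (adjusted p = 0.113, 0.247, 0.111, 0.722 and 0.546). These calls are sensitive. The count was 6 of 53 probe sets on leaving out PE outflow array 4, PE apex array 3 or 4, or vehicle apex array 5. Of all probe sets, 15.1%, 16.5%, 16% and 16.3% were called in these settings. PE outflow arrays 1 and 3 alone left 4, where 11.7% of all were called. Centring left 3 higher and 1 lower, where 17% of all were called. Without PE outflow array 2, 10 were called, where 23% of all were. The split was 7 higher and 1 lower after quantile normalization (17.6% of all called). It was 8 higher and 1 lower with the GAPDH ratio as a covariate (18.6% of all called). With both directions counted together, members were thus called less often than all probe sets in each of these settings. Over all probe sets the split was 9.84% higher and 8.09% lower as deposited, 8.44% and 9.16% after quantile normalization, and 6.59% and 10.4% after centring. Mcm4 and Cdkn1c kept the call in each of the 31 settings tried. Mcm3 lost it in 14, among them leaving out PE outflow array 4 or 5, any of PE apex arrays 2 to 5 or any of vehicle apex arrays 2 to 5 (0.91 to 1.06). Foxm1 lost it in 23 of 30 settings, and with single arrays left out it was kept only without PE outflow array 1 or 5, vehicle outflow array 4, or PE apex array 1 or 5 (1.02 to 1.26 where lost). Bub1b lost it in 22 of 30, and was kept only without PE outflow array 1 or 2, vehicle outflow array 1, or vehicle apex array 2 or 3 (0.87 to 1.12 where lost). The Ttk probe set lost it in 12 of 30, among them leaving out PE outflow array 1 or 3, vehicle outflow array 2, PE apex array 1, 3 or 4, or vehicle apex array 2, 3 or 5 (1.10 to 1.27). Cdkn1b lost it in 6 of 31, among them leaving out PE outflow array 4 or 5 (0.56 and 0.50). With the rat as a fixed block, which pairs the regions, 8 differences were called, 7 higher and 1 lower: Foxm1 (adjusted p = 0.0983), Cdkn1b (adjusted p = 0.052) and the Ttk probe set (adjusted p = 0.0918) were lost, and the dimmer Cdkn1a probe set was gained as lower (-1.01, adjusted p = 0.0169).

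Within PE rats the outflow tract was set against the apex, using the same PE outflow arrays as above. Here 14 of 53 probe sets were higher in the outflow tract and 2 lower, where 28.7% of all probe sets were called, 16% higher and 12.7% lower, and 13 of 38 genes were higher and 0 lower, against 22.3% and 15.5% of all genes. The arrays were apart for 11 probe sets, all higher, where 11.5% of all probe sets were apart in this direction and 8.64% in the other. The median gene stood at 0.28, against 0.09 over all genes. The 13 genes were Mcm2, Mcm3, Mcm4 and Mcm6 (0.52 to 0.94), Foxm1 (1.72 ± 0.29), Mki67 and Cdkn3 (0.94 each), Bub1b (0.92), Prc1 (0.72), Aurkb (0.60), Cdk4 (0.54), Cdkn1b (0.59) and Cdkn1c (1.34 ± 0.16). Lower in the outflow tract were the dimmer Cdkn1a probe set, with means of 107 in the outflow tract and 200.03 in the apex and a log2 fold change of -0.83 ± 0.29 (adjusted p = 0.035), and 1 of 2 Nusap1 probe sets (-0.51 ± 0.15, adjusted p = 0.0153), whose other probe set gave -0.08. Without PE outflow array 2, 14 were higher and 1 lower, where 31.5% of all probe sets were called. With PE outflow arrays 1 and 3 alone, 8 were higher and 1 lower, where 17.1% were called. Single arrays decided 5 of these genes: the call was lost for Mki67 without PE apex array 2 (0.77), for Mcm3 without PE outflow array 4 or 5 (0.70 and 0.64), for Mcm2 without PE outflow array 4 or 5 or PE apex array 2 or 3 (0.40 to 0.50), for Prc1 without PE outflow array 1 or 4 or PE apex array 1, 2 or 4 (0.52 to 0.70), and for Aurkb without PE outflow array 3 or 5 or PE apex array 1, 2 or 5 (0.42 to 0.60). The dimmer Cdkn1a probe set lost its call without PE outflow array 2, 4 or 5 or PE apex array 1, 2 or 3 (-0.80 to -0.68). With the rat as a fixed block, Mki67 and Prc1 were not called either (adjusted p = 0.0616 and 0.0648). Over all probe sets the split moved to 14.0% higher and 14.5% lower after quantile normalization and to 11.9% and 15.7% after centring.

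In vehicle rats, 0 of 53 probe sets and 0 of 38 genes differed between outflow tract and apex by limma, as did 0 of all 31042 probe sets. At an unadjusted p under 0.05 there were 1 member probe set higher and 1 lower, against 3.71% of all probe sets in both directions. A Ttk probe set (1397476_at), the 1 of 53 whose arrays did not overlap, averaged 6.18 in the outflow tract and 23.9 in the apex, where 0.254% of all probe sets were apart with the outflow tract higher and 0.467% with it lower. Mcm4 averaged 233 ± 18.4 in the vehicle outflow tract and 264 ± 62.2 in the vehicle apex, Mki67 82.0 ± 31.6 and 85.2 ± 40.1, and Cdkn1c 525 ± 67.7 and 541 ± 98.0 (SD, n = 5 each). The arrays of both regions overlapped for these 3 genes.

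**Figure D5:**
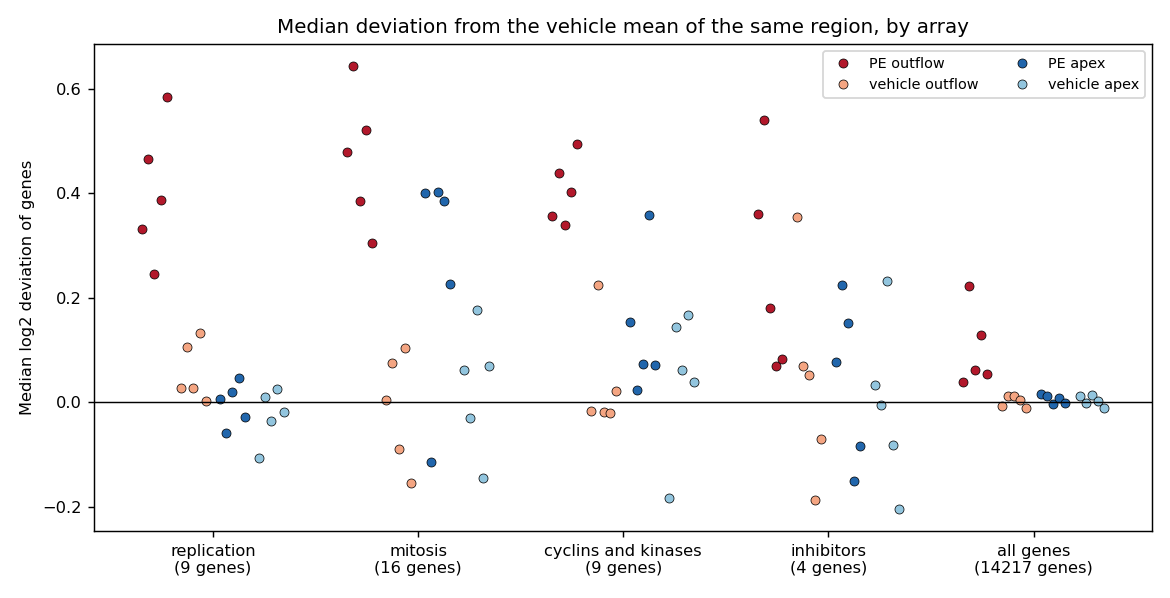
For each array, the median over the genes of a role of the log2 signal plus 16 minus the vehicle mean of the same region, PE outflow tract left of vehicle outflow tract and PE apex left of vehicle apex. All 5 PE outflow arrays lie between 0.24 and 0.58 for replication, 0.31 and 0.64 for mitosis and 0.34 and 0.49 for cyclins and kinases, against 0.04 to 0.22 for all genes, while the inhibitors run from 0.07 to 0.54 and overlap the vehicle arrays. For all genes, too, the PE outflow arrays lie above the vehicle outflow arrays. The PE apex arrays run from -0.11 to 0.40 for mitosis.

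By array, the medians of 3 of the 4 roles were higher on each PE outflow array than on any vehicle outflow array. The median of all genes was apart as well, at 0.04 to 0.22 on PE outflow arrays and -0.01 to 0.01 on vehicle outflow arrays. The median of the 16 mitosis genes was 0.31 to 0.64 on the 5 PE outflow arrays and -0.16 to 0.10 on the vehicle outflow arrays. Replication genes had 0.24 to 0.58 in PE and 0.00 to 0.13 in vehicle. The 4 inhibitors had 0.07 to 0.54 in PE and -0.19 to 0.35 in vehicle, which overlap. Of the 16 genes that rose, PE outflow array 5 was the highest PE array for 8 and the lowest for 4, PE outflow array 2 the highest for 5 and the lowest for 4, and each of the other 3 the highest for 1. Arrays 2 and 5 also had the highest GAPDH ratios of the group, 6.12 and 2.34, and the part of RNA quality in this was not tested. In the apex, the mitosis median was 0.23 to 0.40 on 4 of 5 PE arrays and -0.11 on PE apex array 2, against -0.14 to 0.18 on vehicle apex arrays.

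Further genes of the same processes, 112 measured in 3 lists, gave 43 higher (38.4%) and 9 lower (8.04%) in the PE outflow tract, against 26.3% and 18.0% of all genes, with a median log2 fold change of 0.33. Of 39 other replication genes, 16 were higher and 4 lower (median 0.38). The lower ones were Pola2, a subunit of the primase complex, with means of 538 ± 81.9 in PE and 1233 ± 122 in vehicle outflow tract (log2 fold change -1.18, adjusted p = 2.96e-06), Mcm10, which helps to start the fork (-1.09, adjusted p = 0.000448), Dut, which clears dUTP (-0.68, adjusted p = 8.69e-05), and Pold2, a subunit of polymerase delta (-0.46, adjusted p = 0.00274). Orc6 of the origin recognition complex was higher (0.93, adjusted p = 0.000442). Of 36 other mitosis genes, 15 were higher and 1 lower (median 0.45). Higher were Cks2, a small partner of Cdk1, with means of 301 ± 55.2 in PE and 137 ± 29.5 in vehicle (1.05, adjusted p = 2.42e-05), the checkpoint kinase Bub1 (1.09, adjusted p = 5.06e-05), the kinesin Kif23 (1.22, adjusted p = 0.000134) and the spindle protein Tacc3 (1.40, adjusted p = 0.000354), and Cks1b was the lower one (-0.60, adjusted p = 0.005).

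Of 37 other regulators, 12 were higher (32.4%) and 4 lower (10.8%), nearer to the shares of all genes (median 0.24). E2f6, a repressor of the E2F family, had means of 1618 ± 461 in PE and 4173 ± 286 in vehicle outflow tract (-1.41, adjusted p = 1.1e-06). Cdkn2c, the Ink4 inhibitor p18, had 1112 ± 363 and 368 ± 66.6 (1.51, adjusted p = 6.87e-06). Lower as well were Ccng1 (-0.86, adjusted p = 4.87e-05), a cyclin induced by p53, Ccnh (-0.71, adjusted p = 7.28e-05), the cyclin of the Cdk-activating kinase, and Mdm2 (-0.31, adjusted p = 0.0245), which restrains p53. In the apex, 0 genes of the 3 lists were called. The difference between regions was called for 5 higher and 2 lower of the replication list, 4 and 0 of the mitosis list, and 8 and 3 of the regulators. The higher ones were 12.8%, 11.1% and 21.6% of the 3 lists, against 14.1% of all genes, so the first 2 shares lay below that of all genes.

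Markers of several cell types moved in the same comparison, where 26.3% of all genes were called higher and 18.0% lower. In the PE outflow tract 9 of 10 fibroblast markers and 11 of 13 monocyte and macrophage markers were higher and 0 lower, and 7 of 9 ventricular cardiomyocyte markers were lower and 0 higher. The summed fibroblast signal ran from 162891 to 185183 on PE outflow arrays and from 67781 to 97361 on vehicle outflow arrays, without overlap. Macrophage sums were 34217 to 61210 in PE and 27520 to 34610 in vehicle, which overlap slightly. Ventricular cardiomyocyte sums were 152352 to 428486 in PE and 336995 to 400515 in vehicle. These ranges overlap, but the PE median of 213666 lay below the lowest vehicle array, and the vehicle median was 362738. Atrial markers gave 3 higher and 0 lower of 5 (sums of 20123 to 40134 in PE and 3701 to 6275 in vehicle), and smooth muscle and pericyte markers 6 higher and 1 lower of 8 (20069 to 43680 and 7963 to 10776). Mast cell markers gave 5 higher of 7 (1477 to 2650 and 546 to 766) and nerve and Schwann cell markers 4 of 7 (2118 to 2875 and 736 to 792), both with 0 lower. Endothelial markers gave 2 higher and 1 lower of 8 (20560 to 24390 in PE and 14234 to 18528 in vehicle). T, B and NK cell markers gave 3 and 1 of 13 (1952 to 3771 and 1441 to 1866). Adipocyte markers gave 4 and 1 of 6, with overlapping sums (10659 to 15733 and 9363 to 16650) and a lower median in PE (12068 and 15225). Mesothelial and valve markers gave 5 and 2 of 7 (1988 to 4453 and 1478 to 2047). Erythroid markers gave 0 higher and 1 lower of 4, and neutrophil markers 1 higher of 5 with none over 64 in any group mean. The shares called higher of endothelial (25%), T, B and NK cell (23.1%), neutrophil (20%) and erythroid markers (0) lay below that of all genes. In the apex, 1 atrial marker was called and 0 of all the others, where 0.0211% of all genes were called. At an unadjusted limma p under 0.05, 7 of 10 fibroblast, 7 of 13 macrophage and 4 of 7 nerve markers were higher there and 0 lower. Of all genes, 8.29% passed in both directions. The fibroblast and macrophage medians were 0.41 and 0.52, against 0.00 over all genes. At most 2 were higher in any other list, and 0 of the ventricular cardiomyocyte and endothelial markers. The outflow tract shifts coincide with the cell cycle results by group, and the part of the markers in these was not tested.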

How the data were processed

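RNA of 20 right ventricle samples was measured on Affymetrix arrays. Each deposited value is an intensity on a linear scale, judged from the values; all arrays share a trimmed mean of 500.2 (2% left out at either end), from which a scaling by the authors was inferred, and the software is not given in the sources used here. Of 31099 probe sets, 57 controls were left out and 31042 tested: 20826 had 1 gene symbol in the platform annotation, 436 several and 9780 none, and 20758 matched a current rat gene table by Entrez identifier, with 0 symbols updated. For counts of genes, the brightest probe set (mean log2 signal over all arrays) stood for the gene.

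From the deposited intensities, log2(signal + 16) was computed and fitted by group with limma 3.58.1 in R 4.3.3 (eBayes, all 20 arrays), with two-sided p adjusted by the Benjamini-Hochberg method over 31042 probe sets and no filter on dim signals. A fold change is that of the signal plus 16, carries the SE of the fit and understates the change of dim genes; means carry the SD over 5 arrays, and precision is limited by that number. The labels call the arrays biological replicates. No 2 arrays held the same values (highest correlation 0.976). Tests were tried on simulated data.

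The members, gene lists and tests were chosen with earlier results of these data known. Values of every array are given for Mki67, Top2a, Ccnd1 and Cdkn1a and, per role, for up to 4 genes with the smallest p in the outflow tract; of each further list up to 4 genes are named, and genes beyond these were chosen after their values were seen. Promoters (RefSeq, GRCr8) were matched by Entrez identifier.

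The replicate numbers in the titles were taken to pair the outflow tract and apex of a rat, since over 12310 probe sets, same-numbered deviations from the group means correlated at 0.181 to 0.283 in all 5 PE pairs and 0.181 to 0.276 in all 5 vehicle pairs. PE and vehicle rats are not paired. Alternatives were quantile normalization, median centring, 1 or 64 added, the dimmest 40% left out, only the compared groups, an intensity trend, array weights, the GAPDH ratio as a covariate, the rat as a block, other probe sets of a gene and arrays left out.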

Additional observations from a re-analysis of the deposited data

Results flagged for a closer look

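Single arrays lay far from the rest of their group in 6 of the 68 tests made on the 17 genes whose array values are given; the gap to the nearest other array, as a share of the group's range, passed Dixon's critical value of 0.71. Chance flags about 1 in 20 groups. Top2a read 14.4 on vehicle apex array 5, where the 4 others read 89.4 to 124. Mcm3 was set apart in 3 groups: 40.6 on vehicle outflow array 1 (others 111 to 136), 162 on PE apex array 1 (others 100.3 to 109.9) and 150 on vehicle apex array 4 (others 113 to 121). Cdk1 read 53.3 on vehicle apex array 1, against 94.9 to 117 on the others. Cdkn2b read 54 on PE outflow array 2, which is the array with the high GAPDH ratio, against 6.38 to 11 on the others.

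The PE effect in the outflow tract was larger than that in the apex, by the limma test of the difference, for 10 of 53 probe sets (18.9%). Of all probe sets, 17.9% were called in this test, 9.84% in this direction. On the log2 scale these differences were 1.04 for Mcm3, 1.05 for Mcm4, 0.91 for Mcm6, 1.21 for Foxm1, 1.07 for Bub1b, 1.31 for the dimmer Ttk probe set, 1.07 for the middle Ccnd1 probe set, 0.49 for Cdk4, 0.59 for Cdkn1b and 1.37 for Cdkn1c.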

How the results depend on the processing

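The count of called member probe sets in the outflow tract was 19. It was 13 to 19 over 21 settings and 15 to 19 with single arrays left out. Of all probe sets, 34.5% were called there, 23.5% to 55.6% over the settings and 30.4% to 37.1% with single arrays left out. In the apex and between the regions of vehicle rats the member count was 0 under every setting run. With only the compared groups fitted, 1 of all 31042 probe sets was called between the regions of vehicle rats. The number over a mean of 64 was 36 throughout. The difference of the PE effects (10) fell to 4 under median centring, where 17% of all probe sets were called. It was also 4 with PE outflow arrays 1 and 3 alone, where 11.7% of all were called. With single arrays left out it was 6 to 10, where 14.5% to 23% of all were called. It was 6 without PE outflow array 4, PE apex array 3 or 4, or vehicle apex array 5. Between the regions of PE rats the count was 16, where 28.7% of all probe sets were called. PE outflow arrays 1 and 3 alone gave 9 (17.1% of all). Single arrays left out gave 11 to 17, where 23.9% to 31.5% of all were called. With the rat as a random replicate block, the outflow count was 19, the difference 11 and the regions of PE rats 16; with the rat as a fixed block these last were 8 and 15, and the difference lost Foxm1, Cdkn1b and a Ttk probe set and gained a Cdkn1a probe set, and the regions of PE rats lost Mki67 and Prc1 and gained a Ccnd1 probe set.

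Signs turned for values that were not called: in the apex for Mcm6 (-0.18 to 0.008 with single arrays left out), Mcm2 (-0.006 to 0.19) and Cdkn1c (-0.0189 to 0.16), and in the outflow tract for Cdkn1a (-0.23 to 0.13, and 0.18 with PE outflow arrays 1 and 3 alone). Other probe sets turned the sign of Ccnd1 (-0.0927) and Foxm1 (-0.55) in the apex and of Foxm1 (-0.10) and Cdkn1b (-0.0325) in the outflow tract, both called there on the brighter probe set. The cause was not tested. Between the regions of PE rats, the call was lost in 10 settings for Mcm2, 11 for Prc1, 9 for Aurkb, 5 for Mcm3 and 4 for Mki67, the last without PE apex array 2 (0.77) and with the GAPDH covariate (0.61) among them. Leaving out the dimmest 40% gives no value for members among them, PE outflow arrays 1 and 3 alone concern no comparison without that group, and the fit to the compared groups is the full fit for the difference. Signals near 64 and below carry large spreads, which limits Foxm1, Bub1b, Ttk and Cdkn2b.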
